A study of Mus musculus with 4 samples.

Results

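Cytotoxic lymphocytes kill by releasing granules. The granules hold granzymes, which are serine proteases, together with perforin, which forms pores in the target membrane, and serglycin, a proteoglycan that packs the positively charged proteases in the granule core. The killer cell protects itself from leaked granzyme with serpins, which trap the protease after it attacks a loop of the serpin. Activated helper T cells can also make some of these proteins, and granzyme B is known in helper T cells that grow in interleukin 2.

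The genes described here are 10 listed members of this granule programme: the granzyme genes Gzma, Gzmb, Gzmc and Gzmk, the perforin gene Prf1, the granule membrane protein gene Nkg7, the cathepsin W gene Ctsw, the serpin genes Serpinb9 and Serpinb6b, and the serglycin gene Srgn. They were taken by symbol from the 23480 gene identifiers measured, and all 10 were found. The 4 RNA-seq libraries came from mouse T cells, 2 cultured under Th9 conditions with the cytokine TL1A (written TLA1 in the sample labels) and 2 under Th9 conditions alone. Th9 cells are helper T cells named for interleukin 9, and TL1A is a ligand of the TNF superfamily. The labels give no strain, age, genotype, cell purification, culture time or TL1A dose, and nothing in them says that the replicates are separate animals or cultures. The p-values therefore reflect how far these libraries differ, and that difference may be technical.

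The TL1A libraries held 2979482 and 3081187 reads in genes and the Th9 libraries 4041633 and 3167270. Levels are given as CPM, reads scaled to the same total in every library. A count of 3 reads, used as the floor for what a value of 0 can hide, corresponded to 0.742 to 1.01 CPM, for counting error only. All 12 T cell markers passed the filter on low counts, with summed levels of 4716 and 4389 CPM with TL1A and 3536 and 3973 CPM without it. Cd4, the helper T cell coreceptor gene, had 520 and 480 CPM with TL1A and 470 and 457 CPM without it. Cd8a, the coreceptor gene of cytotoxic T cells, had 2 and 0 reads with TL1A and 5 and 0 reads without it. Of 13 matched natural killer cell markers, 8 had no read in any library, the receptor genes Ncr1, Klrb1c and Klrk1 among them, and the list summed to between 4.10 and 8.76 CPM in each library.

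With TL1A, Gzmb fell 3.17-fold and Srgn rose 2.19-fold. These were 2 of the 6 members that had enough reads to be tested (n = 2 libraries per group). Gzma, Ctsw, Serpinb9 and Serpinb6b were tested and did not pass. Gzmc, Gzmk, Prf1 and Nkg7 were too low to test, at 0 to 9 reads in each library. A gene was called at an adjusted p under 0.05 (limma, Benjamini-Hochberg over 10324 tested genes); of all tested genes 1.14% were called, 0.891% as higher and 0.252% as lower with TL1A. With Th9 replicate 2 left out neither Gzmb (adjusted p = 0.120, limma) nor Srgn (0.109) was called. Srgn also lost its call with Th9 replicate 1 (0.0642) or TL1A replicate 1 (0.0761) left out, and with no filter on low counts (0.0770). In bulk libraries a change in the number of cells that express a gene and a change in RNA per cell cannot be told apart: fewer cells or less RNA per cell for Gzmb, more of either for Srgn.

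**Figure D1:**
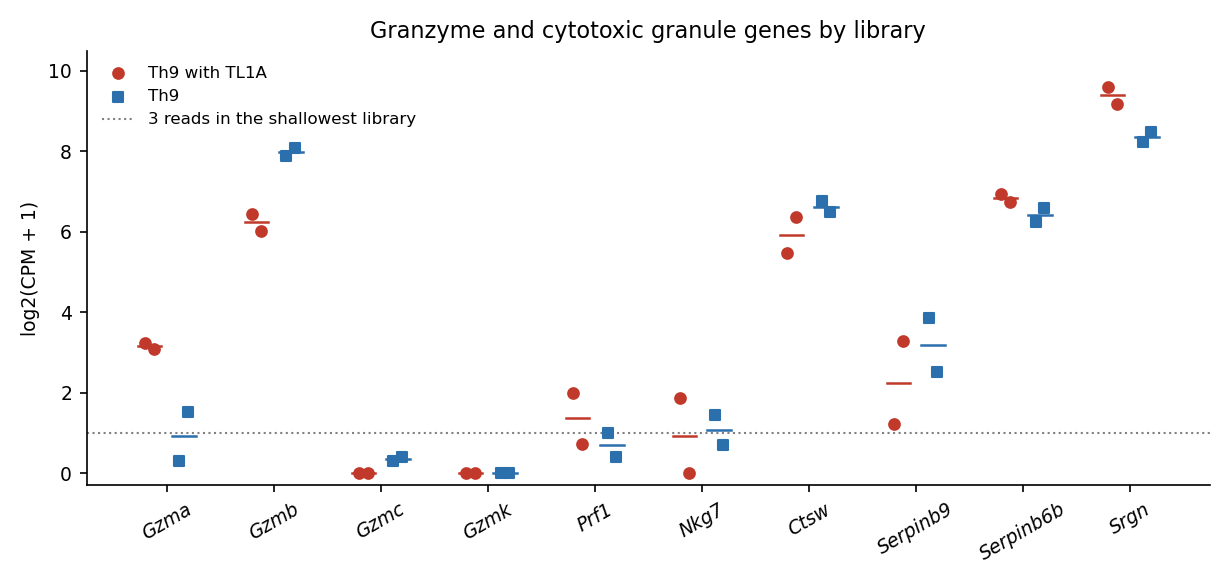
Levels of the 10 granule genes in each library as log2(CPM + 1), with a dot per library and a bar at the group mean of these log values; TL1A libraries are circles left of the Th9 squares. Gzmb lies lower and Srgn higher with TL1A, while Gzmc and Gzmk lie below the dotted line that marks 3 reads in the shallowest library, in all 4 libraries.

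The 250 bases before the RefSeq start sites of Gzmb, Srgn and Gzma are shown because the first 2 genes passed the test in opposite directions and the third had the largest tested difference of the members. Capitals mark matches, on either strand, to the letters searched: AP-1 (TGANTCA), the site type bound by the BATF factors named in the series title, RUNX (TGTGGT), T-box (GGTGTGA), STAT (TTCNNNGAA), CRE (TGACGTCA), GATA factors (AGATAA) and the NF-kB consensus. The sequences are from RefSeq on GRCm38.p6, the assembly called mm10, each written 5′ to 3′ towards the gene on the minus strand, at chr14:56262335-56262584 for Gzmb, chr10:62507758-62508007 for Srgn and chr13:113100982-113101231 for Gzma.
Gzmb: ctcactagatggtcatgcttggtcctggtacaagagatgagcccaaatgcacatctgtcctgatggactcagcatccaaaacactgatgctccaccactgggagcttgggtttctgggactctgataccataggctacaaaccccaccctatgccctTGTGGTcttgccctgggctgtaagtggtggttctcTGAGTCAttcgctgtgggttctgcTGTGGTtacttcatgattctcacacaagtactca
Srgn: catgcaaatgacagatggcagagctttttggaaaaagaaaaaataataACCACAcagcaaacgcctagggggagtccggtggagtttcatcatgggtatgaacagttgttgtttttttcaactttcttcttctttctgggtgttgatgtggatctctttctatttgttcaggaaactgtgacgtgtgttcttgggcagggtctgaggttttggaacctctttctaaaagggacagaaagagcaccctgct
Gzma: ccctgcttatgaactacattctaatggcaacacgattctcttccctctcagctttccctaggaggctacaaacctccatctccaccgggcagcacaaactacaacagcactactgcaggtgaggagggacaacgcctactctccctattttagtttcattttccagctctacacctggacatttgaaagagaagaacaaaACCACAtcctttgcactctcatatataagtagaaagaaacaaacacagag

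The Gzmb window held 1 AP-1 match, TGAGTCA, from 58 to 52 bases before the start, between 2 RUNX matches, at 93 to 88 and 34 to 29 bases before it. An AP-1 match was found in 6.75% and a RUNX match in 14% of all 32851 windows of this length in the table. The Srgn window shown is that of a downstream start inside the span of the gene. It held 1 RUNX match, 202 to 197 bases before that start. The window of the upstream Srgn start, at chr10:62527446-62527695, is not shown and had no match to any of the 7 motifs. The Gzma window held 1 RUNX match, 50 to 45 bases before the start. Among the windows of the other members, Gzmc, Nkg7 and Prf1 also held RUNX matches, and those of Serpinb9 and Serpinb6b held none of the 7 motifs. Gzmk and Nkg7 held a T-box match, Nkg7 a STAT match and Gzmc a CRE match. Of all windows, 3.33% held a T-box, 7.02% a STAT and 1.55% a CRE match. Ctsw had no window to search. No motif in this search overlapped another in the windows shown. These matches describe letters only, and binding was not measured.

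Among the granzymes, Gzmb carried nearly all reads. Gzmb (Entrez 14939, chromosome 14, 56258836 to 56262334 of mm10, minus strand) encodes granzyme B, which cuts after aspartate and activates caspases in target cells. It had 86.3 and 64.3 CPM with TL1A, against 237 and 272 CPM without it. Both TL1A libraries were below both Th9 libraries, with means of 75.3 ± 15.6 and 254 ± 24.4 CPM (SD, n = 2 each). The log2 difference was -1.66 ± 0.22 (SE, 95% interval -2.14 to -1.19, limma adjusted p = 0.00427). It lay between -1.88 and -1.45 with any 1 library left out.

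Gzma (Entrez 14938, chromosome 13, 113093824 to 113100981) encodes granzyme A, a protease that cuts after basic residues. It had 25 and 23 reads with TL1A, or 8.39 and 7.46 CPM, against 1 and 6 reads without it, or 0.247 and 1.89 CPM. The groups did not overlap, but the difference did not pass the test (log2 difference 2.28 ± 0.74 SE, 95% interval 0.67 to 3.89, limma adjusted p = 0.159), and 1 Th9 library was under the floor of 3 reads. The value depended on how low counts were treated, at 1.13 with a pseudocount of 5 CPM in place of 1 and 2.71 with 0.5. The locus overlaps Cdc20b, and the library kit does not mark strand.

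Gzmc, a granzyme gene of the same chromosome 14 cluster as Gzmb, had 0 reads in both TL1A libraries and 1 read in each Th9 library. Gzmk, which lies near Gzma on chromosome 13 and encodes granzyme K, had 0 reads in all 4 libraries. The 6 other granzyme genes, Gzmd, Gzme, Gzmf, Gzmg, Gzmm and Gzmn, had 1 read in all, in Gzmf in a Th9 library. All but 3 of the granzyme reads in the 4 libraries thus belonged to Gzmb or Gzma.

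Within 200000 bases of Gzmb, RefSeq lists 11 further protein-coding genes, including 6 granzyme genes and the protease genes Mcpt4, Mcpt8 and Ctsg. None of them had more than 1 read in any library. Gzmb stood alone in that stretch with more than 1 read in a library. The longest annotated Gzmb transcript shared no stretch of 50 bases with a transcript of another gene, whereas 4.14% of such stretches of Gzmc were shared with other genes, mostly with Gzme.

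The share of Gzma among all reads of the 10 granzyme genes does not depend on the scaling between libraries. It was 8.87% of 282 reads (95% Wilson interval 6.08% to 12.8%) and 10.4% of 221 reads (7.04% to 15.1%) with TL1A. In the Th9 libraries it was 0.104% of 961 reads (0.0184% to 0.587%) and 0.692% of 867 reads (0.318% to 1.50%). Both TL1A libraries lay above both Th9 libraries, and no interval of one group reached an interval of the other. Gzmb supplied most of the granzyme reads in every library and was called lower with TL1A. A fall of Gzmb alone would raise the Gzma share, so the share is no separate support for a rise of Gzma. The intervals cover counting error only, since reads from amplified cDNA are not independent molecules, and with 2 libraries against 2 a permutation over libraries cannot go below p = 0.333.

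**Figure D2:**
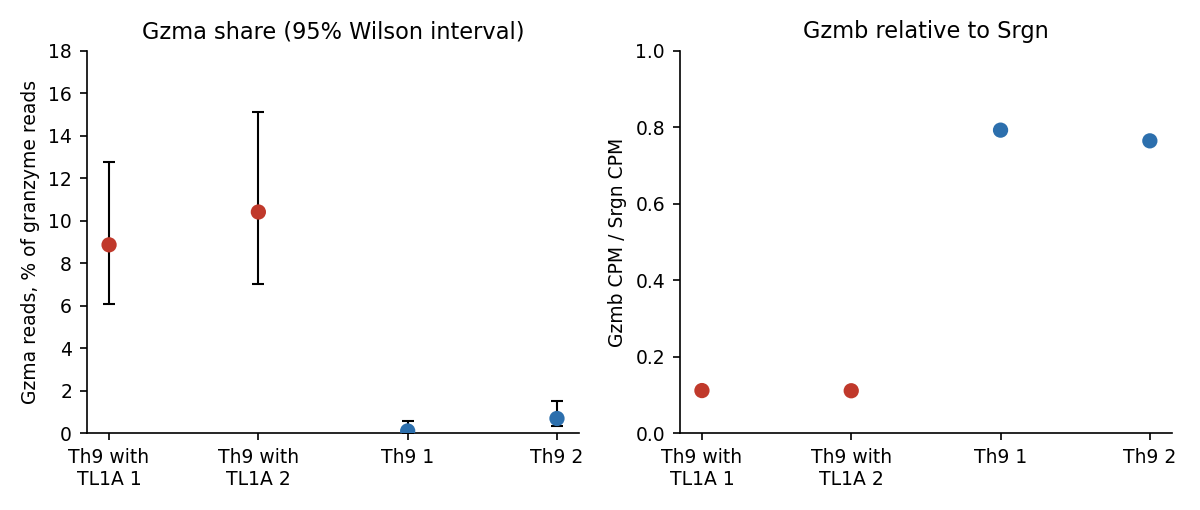
Left, Gzma reads as a percentage of all granzyme reads in each library, with 95% Wilson intervals; right, the ratio of Gzmb to Srgn CPM in each library. The TL1A libraries, on the left of each panel, have Gzma shares of 8.87% and 10.4% and ratios of 0.111 each. The Th9 libraries have shares of 0.104% and 0.692% and ratios of 0.792 and 0.764. Both measures contain Gzmb, which was itself called lower with TL1A.

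The pore and membrane proteins of the granule were near the floor. Prf1 (Entrez 18646, chromosome 10, 61297751 to 61304684), the gene of perforin, had 9 and 2 reads with TL1A and 4 and 1 reads without it. Nkg7 (Entrez 72310, chromosome 7, 43437138 to 43438246), whose product takes part in granule release in killer cells, had 8 and 0 reads with TL1A and 7 and 2 reads without it. The groups overlapped for both genes, and a difference was not detectable at this depth.

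Srgn (Entrez 19073, chromosome 10, 62493833 to 62527445) encodes serglycin and was, per length, the most abundant member in the TL1A libraries. It had 774 and 579 CPM with TL1A, against 299 and 355 CPM without it. Both TL1A libraries were above both Th9 libraries, with means of 677 ± 138 and 327 ± 39.6 CPM (SD, n = 2 each). The log2 difference was 1.13 ± 0.20 (SE, 95% interval 0.69 to 1.57, limma adjusted p = 0.0215). It lay between 0.91 and 1.34 with any 1 library left out. The Srgn locus overlaps Gm51804, a long noncoding RNA gene.

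The ratio of Gzmb to Srgn within a library, which no scaling changes, was 0.111 in each TL1A library and 0.792 and 0.764 in the Th9 libraries. The replicates of each group lay close together and the groups far apart. Gzmb and Srgn are the members that were called, in opposite directions, so their ratio restates those calls and is no separate support. Relative to Serpinb6b, Gzmb had ratios of 0.704 and 0.609 with TL1A and 3.14 and 2.84 without it. Relative to Serpinb9 the groups overlapped, with 64.2 and 7.33 with TL1A and 17.4 and 57.3 without it, and Serpinb9 itself had few reads. Relative to Ctsw, the ratios were 1.99 and 0.792 with TL1A and 2.21 and 3.07 without it, so the Ctsw ratios of the groups were separated by less than the gap between the TL1A libraries.

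Ctsw (Entrez 13041, chromosome 19, 5465043 to 5468628) encodes cathepsin W, a cysteine protease gene expressed mainly in cytotoxic lymphocytes. It had 43.3 and 81.1 CPM with TL1A, against 107 and 88.4 CPM without it. The TL1A libraries were both lower but differed widely from each other, and the difference did not pass the test (log2 difference -0.62 ± 0.29 SE, 95% interval -1.25 to 0.02, limma adjusted p = 0.312). The value was -0.18 without TL1A replicate 1 and -1.05 without TL1A replicate 2. Its locus overlaps Fibp, which had 53 and 75 reads with TL1A and 102 and 80 reads without it. Reads of the 2 genes cannot be told apart where they overlap.

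The granzyme-blocking serpins did not pass the test in either direction. Serpinb6b (Entrez 20708, chromosome 13, 32956811 to 32979067), listed among these serpins, had 123 and 105 CPM with TL1A. Without TL1A it had 75.5 and 95.7 CPM. The groups did not overlap (log2 difference 0.51 ± 0.23 SE, 95% interval 0.01 to 1.01, limma adjusted p = 0.294). Of its transcript's 50-base stretches, 3.12% were shared with other genes, Serpinb6c foremost, which had 1 read in all.

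Serpinb9 (Entrez 20723, chromosome 13, 32997061 to 33017955) encodes the mouse inhibitor of granzyme B. It had 4 and 27 reads with TL1A and 55 and 15 reads without it, or 1.34 and 8.76 CPM against 13.6 and 4.74 CPM. Both groups varied severalfold within themselves and overlapped. The log2 difference was -0.86 ± 0.77 (SE, 95% interval -2.55 to 0.82, limma adjusted p = 0.627), and its sign turned to 0.17 without TL1A replicate 1. The Serpinb9 locus overlaps Gm36181, a long noncoding RNA gene.

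Per kilobase of exon, Srgn had the highest mean level of the members in TL1A libraries, at 386 ± 78.6 CPM per kb (SD, n = 2). Gzmb, Serpinb6b and Ctsw followed at 52.4 ± 10.8, 52.0 ± 5.49 and 50.1 ± 21.6 CPM per kb, a difference in order smaller than their spread. In Th9 libraries Srgn, at 187 ± 22.6, and Gzmb, at 177 ± 17.0 CPM per kb, did not differ beyond their spread, and Ctsw and Serpinb6b followed at 78.9 ± 10.8 and 39.0 ± 6.51 CPM per kb. Gzma reached 7.88 CPM per kb with TL1A and 1.06 without it, and Serpinb9 had 1.45 with TL1A and 2.63 without it. Prf1 had 0.710 CPM per kb with TL1A and 0.253 without it, and Nkg7 had 1.52 with TL1A and 1.34 without it.

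**Figure D3:**
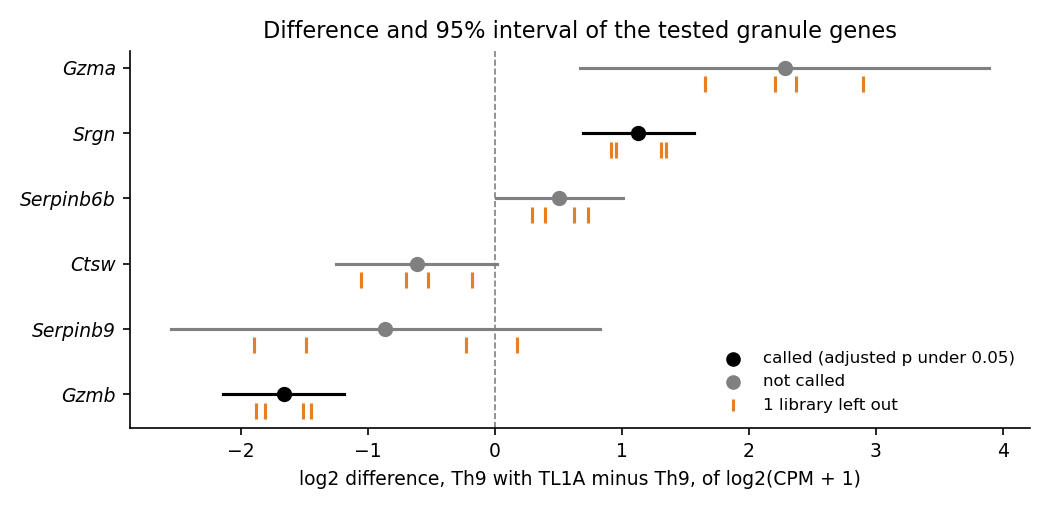
Log2 difference (Th9 with TL1A minus Th9, of log2(CPM + 1)) and its 95% interval from limma for the 6 tested members, black where called and grey where not; orange ticks give the value with 1 library left out. Gzmb at -1.66 and Srgn at 1.13 were called, and among these ticks Serpinb9 alone crosses 0.

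Groups did not overlap in 5 of the 6 tested members, against 47.4% of all tested genes, and the median log2 difference of the 6 was -0.05, against -0.01 for all tested genes. These 6 are the members with enough reads, so the counts do not describe all 10. EdgeR's quasi-likelihood test on the recovered reads called 1.07% and DESeq2 2.66% of tested genes, and among the members both called Gzmb and Srgn and no other; DESeq2 gave no adjusted p for Gzma and Serpinb9.

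Of 14 tested genes for granule maturation and contents none passed, where 1.14% of all tested genes did, a share at which a list this short need hold no call. Their median log2 difference was 0.29. Ctsb, the most abundant of them, which encodes cathepsin B, had 555 and 446 CPM with TL1A and 284 and 370 CPM without it (limma adjusted p = 0.127). Ctsc, which encodes the peptidase that activates progranzymes, had 104 and 109 CPM with TL1A and 158 and 151 CPM without it (adjusted p = 0.276). Cst7, the gene of cystatin F, which inhibits that peptidase, had 61.1 and 63.6 CPM with TL1A and 36.1 and 48.3 CPM without it (adjusted p = 0.262). Ctsc was lower and Cst7 higher in both TL1A libraries, and neither difference passed the test. Ctsc, Cst7 and the further list genes named without a call, other than the most abundant of each list, were chosen after their values were seen.

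Of 17 tested genes for granule transport and exocytosis none passed, against the same 1.14% of all tested genes, and their median was 0.04. Coro1a, an actin regulator gene and the most abundant of them, had 849 and 897 CPM with TL1A and 790 and 851 CPM without it (limma adjusted p = 0.651). Unc13d, whose product primes granules for fusion, had 79.9 and 63.3 CPM with TL1A and 86.8 and 64.1 CPM without it, and the groups overlapped. Stx11, a fusion protein gene, had 205 and 175 CPM with TL1A and 100 and 133 CPM without it (adjusted p = 0.116).

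Among the other clade B serpins, 12 of 20 genes had no read and 2 were tested. Serpinb6a, the most abundant, had 15.1 and 11.7 CPM with TL1A and 16.6 and 11.4 CPM without it. Serpinb1a, whose product inhibits neutrophil serine proteases, had 0 and 1 reads with TL1A and 43 and 32 reads without it, and its difference did not pass the limma test (adjusted p = 0.0590). Its adjusted p lay on both sides of the threshold among the alternative settings, from 0.0368 to 0.455.

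Of all tested genes 1.14% were called, and of 7 tested death ligand and receptor genes 1 was, Fas, which rose. It encodes a receptor that triggers apoptosis and had 89.9 and 93.8 CPM with TL1A and 45.0 and 43.3 CPM without it (log2 difference 1.13 ± 0.24 SE, limma adjusted p = 0.0440), but its call was lost when any 1 library was left out (adjusted p from 0.0746 to 0.178), with no filter on low counts (0.0818) and with CPM as deposited (0.0842). Fasl, the gene of its ligand and the other contact killing route of T cells, had 34.2 and 24.3 CPM with TL1A and 16.8 and 47.7 CPM without it. Lta, the lymphotoxin alpha gene and the most abundant of the list, had 785 and 691 CPM with TL1A and 759 and 547 CPM without it. The groups overlapped for both Fasl and Lta, and the list's median was 0.16, against -0.01 for all tested genes.

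The median of 17 tested genes for receptors and factors that regulate the cytotoxic programme was 0.32, against -0.01 for all tested genes. Of these 17 genes 1 was called, where 1.14% of all tested genes were, and this was Il12rb2, which rose. It encodes a chain of the interleukin 12 receptor and had 428 and 349 CPM with TL1A and 78.9 and 196 CPM without it (log2 difference 1.72 ± 0.34 SE, limma adjusted p = 0.0352). Leaving out Th9 replicate 1 gave 1.02, and leaving out Th9 replicate 2 gave 2.42. Its call was lost with Th9 replicate 1 left out (adjusted p = 0.0572), with no filter on low counts (0.118), with CPM as deposited (0.0696), in edgeR (0.0667) and in DESeq2 (0.208), and its locus overlaps Serbp1. Il2ra, the interleukin 2 receptor gene and the most abundant of the list, had 3599 and 3564 CPM with TL1A and 2977 and 3137 CPM without it (adjusted p = 0.437).

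Among the lineage factors of killer cells, Tbx21, the T-bet gene, had 8.73 and 12.0 CPM with TL1A and 12.6 and 2.84 CPM without it, and the groups overlapped. Eomes, its relative, had 0 and 1 reads with TL1A and 4 and 0 reads without it. Runx3, which encodes a RUNX factor, had 121 and 89.9 CPM with TL1A and 72.0 and 84.9 CPM without it (limma adjusted p = 0.316). Tbx21 and Runx3 did not pass the test, with 95% intervals of -0.68 to 2.12 and -0.02 to 1.03, and Eomes was too low to test.

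Of 13 genes that encode known targets of granzyme A or granzyme B, or partners of those targets, 1 was called, Lmnb1, which fell. Of all tested genes 1.14% were called. The median of the list was -0.51, against -0.01 for all tested genes. Lmnb1, the lamin B1 gene, had 68.1 and 71.4 CPM with TL1A and 159 and 167 CPM without it (log2 difference -1.12 ± 0.20 SE, limma adjusted p = 0.0254). The call did not hold with no filter on low counts (adjusted p = 0.0595), nor with Th9 replicate 1 (0.0951), Th9 replicate 2 (0.160) or TL1A replicate 2 (0.0698) left out. Hmgb2, the most abundant of the list, had 421 and 387 CPM with TL1A and 738 and 565 CPM without it (adjusted p = 0.144).

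**Figure D4:**
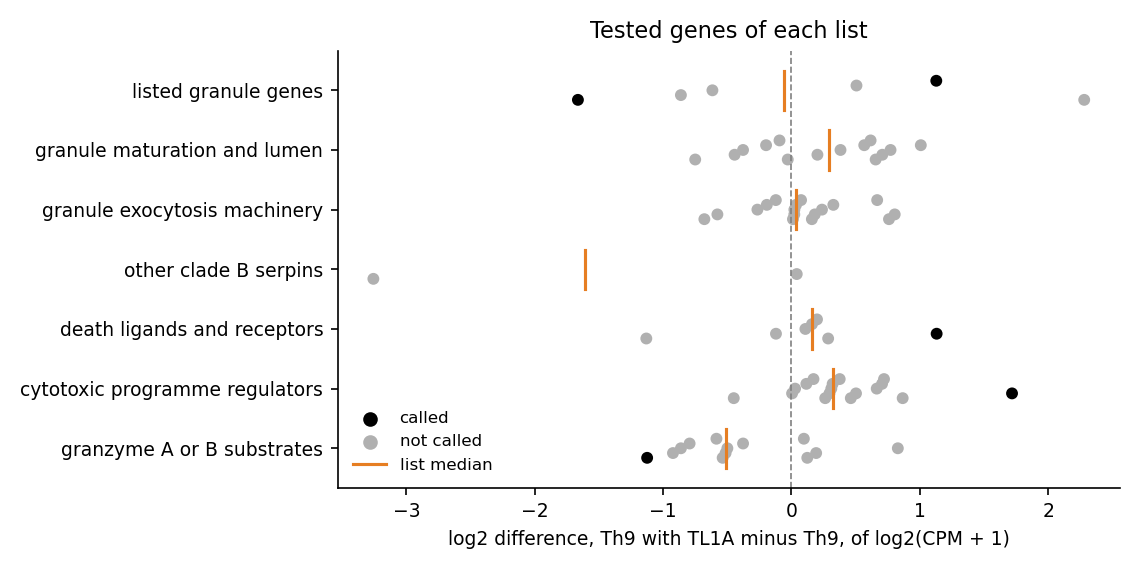
Log2 difference (Th9 with TL1A minus Th9, of log2(CPM + 1)) of each tested gene by list, black where called, with the list median in orange. Gzmb, Srgn, Fas, Il12rb2 and Lmnb1 are the called genes, and the granule maturation and exocytosis lists hold none, where 1.14% of all tested genes were called.

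Among the T cell markers 1 of 12 was called: Cd5, an inhibitory receptor gene, rose to 257 and 210 CPM with TL1A, against 109 and 116 CPM without it (limma adjusted p = 0.0204), a call lost with no filter on low counts (0.0595) and with Th9 replicate 1 (0.0928), Th9 replicate 2 (0.120) or TL1A replicate 1 (0.0633) left out. Of all tested genes 1.14% were called. Lck, the most abundant T cell marker, had 925 and 956 CPM with TL1A and 837 and 829 CPM without it.

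The markers of other cells that carry granzymes were low. Cd8b1 had 9.06 and 10.1 CPM with TL1A and 6.68 and 13.3 CPM without it, and the groups overlapped. Of 13 mast cell and basophil markers 11 had no read, and the list, led by Kit, summed to 5.03 and 0.974 CPM with TL1A and 0.247 and 5.05 CPM without it. The natural killer list, led by the chemokine gene Ccl5, summed to 8.39 and 8.76 CPM with TL1A and 4.70 and 4.10 CPM without it. Without Ccl5 it summed to 2.01 and 2.60 CPM with TL1A and 2.47 and 2.21 CPM without it, which overlap. Klrd1, a receptor gene of natural killer cells, had 3 and 3 reads with TL1A and 9 and 6 reads without it. Fcgr3 of the same list went the other way, with 3 and 3 reads with TL1A and 1 and 0 reads without it. Klrc1 had 0 and 2 reads with TL1A and 0 and 0 without it, and Klrg1 had 0 and 0 with TL1A and 0 and 1 without it. The part of Ccl5-expressing cells in the differences of Gzma and Gzmb was not tested.

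B cell markers summed to 28.9 and 29.2 CPM with TL1A and 10.4 and 12.9 CPM without it, of which Cd79b made 24.2 and 28.6 CPM with TL1A and 6.19 and 12.9 CPM without it, while the defining genes Ms4a1 and Pax5 had no read. Myeloid markers, led by Cd68, summed to 11.1 and 6.17 CPM with TL1A and 3.46 and 1.89 CPM without it, and Csf1r, Cd14, Lyz2 and Fcgr1 had no read. Adgre1, a macrophage marker of that list, had 0 reads in both TL1A libraries and 8 and 1 reads in the Th9 libraries. Itgam had 0 and 0 reads with TL1A and 1 and 0 without it. Flt3 and Itgax of that list went the other way. Flt3 had 5 and 5 reads with TL1A and 1 and 0 without it, and Itgax had 5 and 0 with TL1A and 0 and 0 without it. Both sums were higher in both TL1A libraries, as Srgn was, which blood cells of many kinds express, and their part in its difference was not tested.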

How the data were processed

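The values the authors deposited are CPM, with 1 file per library and the same total in each. Per the submitters' processing notes, the tools included HTSeq 0.5.4 and edgeR and the build was mm10. Aligner and annotation: not given in the sources used here. RNA was amplified with a SMARTer Ultra Low Input kit and sequenced on an Ion Torrent instrument, per the labels' protocols. In every library 100% of non-zero values were whole multiples of the value of 1 read, within 0.01 of a read, so whole reads were recovered. RefSeq (GRCm38.p6) gave symbols for 23383 of 23480 identifiers.

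Genes were kept by filterByExpr (minimum count 10) on recovered reads. CPM were divided by TMM factors, and log2(CPM + 1) was fitted with limma on the group alone, with a mean trend; this log2 scale understates differences of low genes. Printed CPM are as deposited. EdgeR's quasi-likelihood test on the recovered reads, an alternative, called 110 genes. The variance between replicates was 7.80 (TL1A) and 12.7 (Th9) times the variance of sampling noise (chi-square per degree of freedom). Exon lengths and transcripts came from GENCODE M21, promoters from RefSeq.

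The members, lists, named genes and motifs were chosen with earlier results of these data known. Named were all members, and from each other list the called genes (at most 4) and the most abundant gene; all further list genes and cell type markers named were chosen after their values were seen. The limma fit alone was tested on simulated counts, drawn with no difference between experiments, and that test says nothing of such a difference here. Tests ran in R 4.3.3 with DESeq2 1.42.0, edgeR 4.0.16 and limma 3.58.1, and counts and figures were made in Python 3.11.15 with numpy 2.4.6, pandas 2.3.3 and matplotlib 3.10.9.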

Additional observations from a re-analysis of the deposited data

How the results depend on the processing

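Of the 10 members, 2 were called in the limma fit, and Gzmb and Srgn remained those called with RLE or upper quartile scaling, CPM as deposited, a stricter filter, either other pseudocount, limma voom, edgeR's quasi-likelihood test and DESeq2. Without a filter on low counts 1 member was called, Gzmb. Leaving out each library gave 0 to 2 called members. The log2 difference of Serpinb9, -0.86 with all libraries, lay between -1.90 and 0.171 when each was left out and reversed without TL1A replicate 1. Over all genes 118 were called, and 73 with CPM as deposited, where the median of all tested genes was -0.10, 33 without a filter, 275 with DESeq2 and 19 to 155 when each library was left out. With the replicate number as a block 225 genes were called, Gzmb and Srgn among them; the labels do not say that the numbers pair cultures, and same-numbered deviations had a correlation of -0.01 across genes. The names of the deposited files give both replicate 2 libraries 1 shared prefix and the replicate 1 libraries a prefix each; what it marks is not stated in the sources used here, and if it marks an experiment, the replicate 1 libraries differ in it between the groups. With 2 libraries per group and near-floor reads, differences of Gzmc, Gzmk, Prf1 and Nkg7 could not be assessed. The causes of the moved counts were not tested.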
